A study of Mus musculus with 18 samples.

Results

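The interleukins and their receptors were described here as 73 genes out of 18193 measured, in lung tumours and lung tissue of B6C3F1/N mice, a hybrid laboratory strain widely kept for rodent cancer bioassays. The genes were those whose array annotation gives a single symbol that starts with Il and a digit, each represented by its probe set of highest mean over the 18 arrays, out of 115 such probe sets. They comprised 33 ligands, 36 receptor subunits and 4 others, namely the receptor antagonist Il1rn, the binding protein Il18bp, the amino acid oxidase Il4i1 and the antisense RNA Il1bos. Several well-known members, such as Il1rl1, the receptor of IL-33, and Il2rg, the common gamma chain, were not analysed here. The groups held 6 arrays each and were spontaneous tumours, which are lung tumours not attributed to cobalt, cobalt tumours from mice that inhaled cobalt metal dust, and control lung labelled as vehicle control. Per the labels, mice entered the study at 5 to 6 weeks of age and breathed cobalt at 1.25, at 2.5 or at 5 mg/m3, or none, for 6 hours on 5 days a week and for at most 105 weeks. Both sexes were in the study, and the dose, sex and final age behind each array are not given. Tumours were cut out of the lung before RNA was extracted, whereas control samples were lung tissue, and the labels leave unsaid whether each array stands for a mouse of its own, so that p-values describe spread among arrays, which may be technical.

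Interleukins are secreted signalling proteins through which leukocytes, epithelium and stroma control inflammation and immunity. Most bind a private receptor subunit paired with one that several interleukins share: IL-6 and IL-11 signal through Il6st, the IL-2 group through the common gamma chain, and these receptors act through JAK kinases and STAT factors. The IL-1 family, with IL-1, IL-18, IL-33 and IL-36, signals through related receptors to MyD88 and NF-kappaB, and is held in check by an antagonist, a decoy receptor and a binding protein. In lung, IL-33 of alveolar epithelium acts as an alarm signal, and IL-4 and IL-13 drive type 2 inflammation.

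Values are log2 expression levels (RMA) and a difference of 1 is a doubling. Array medians lay between 6.32 and 6.45, and 42 of the 73 genes had mean levels under the lowest of these in all 3 groups, among them 23 of the 33 ligands and 17 of the 36 receptor subunits. Detection calls were not used here, so whether these genes were detected is unknown, and differences of dim genes are compressed in such values. Only 20 of the 73 lay above the highest array median on every array, 13 of them receptor subunits and 6 ligands. Cobalt tumour 6 lay nearer to control lung than the other tumours on the first principal component, spontaneous tumours 2 and 6 stood apart on the second, and control lung 1 had the highest mean level of neutrophil markers. All 6 control lungs, but 2 of 6 spontaneous and 4 of 6 cobalt tumours, had Xist above 10, as in female tissue. Leaving these arrays out ended or made some calls, and the value without them is given for part of these. The description of control lung 6 names a spontaneous tumour, against its title, source and group, and it was kept as a control.

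**Figure D1:**
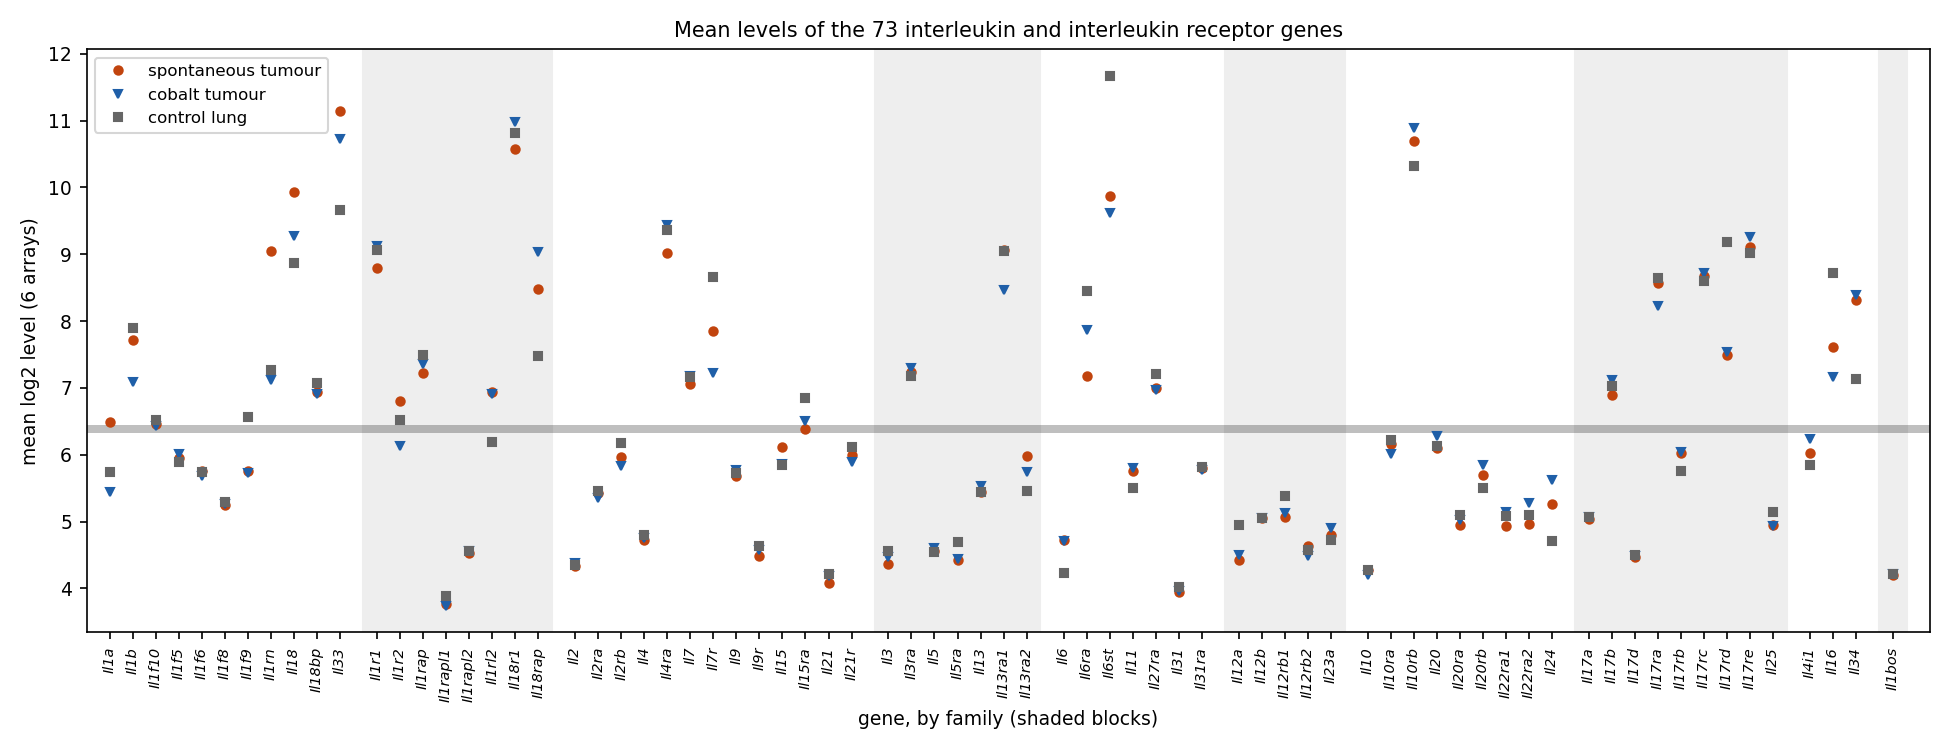
Mean log2 level (y axis, 6 arrays) of each of the 73 genes (x axis, in shaded blocks by family) in spontaneous tumours (circles), cobalt tumours (triangles) and control lung (squares), with the range of array medians as a grey band. Levels of different genes are not comparable with each other, and 42 genes lie under the band in all 3 groups.

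In spontaneous tumours 5 interleukin genes rose and 7 fell against control lung, and in cobalt tumours 5 rose and 9 fell (limma with Benjamini-Hochberg adjustment over 18193 genes, threshold 0.05). The 12 calls in spontaneous tumours were 16.4% of the 73, where 34.6% of all genes were called, and the 14 calls in cobalt tumours were 19.2%, where 34.0% of all genes were called. Over all genes, 16.4% rose and 18.2% fell in spontaneous tumours, and 14.7% rose and 19.3% fell in cobalt tumours. Among genes brighter than the 6064 dimmest, 29.0% of the 31 interleukin genes were called in each tumour group, against 43.5% of all such genes in spontaneous tumours and 43.6% in cobalt tumours. The groups did not overlap for 4 of the 73 (5.48%, against 21.1% of all genes) in spontaneous tumours and for 6 (8.22%, against 18.9%) in cobalt tumours. The share of interleukin genes called was thus below that of all genes in each comparison. The median log2 difference of the 73 was -0.04 in spontaneous and -0.03 in cobalt tumours, next to -0.03 over all genes in each. The calls held 6 of 36 receptor subunits and 5 of 33 ligands in spontaneous tumours, and 10 of 36 receptor subunits and 4 of 33 ligands in cobalt tumours, and whether these shares differ was not tested. Both tumour groups were set against the same 6 control lungs, so their differences are not independent of each other and are given side by side. The arrays measured whole samples, in which fewer cells of a type and less RNA per cell cannot be told apart.

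**Figure D2:**
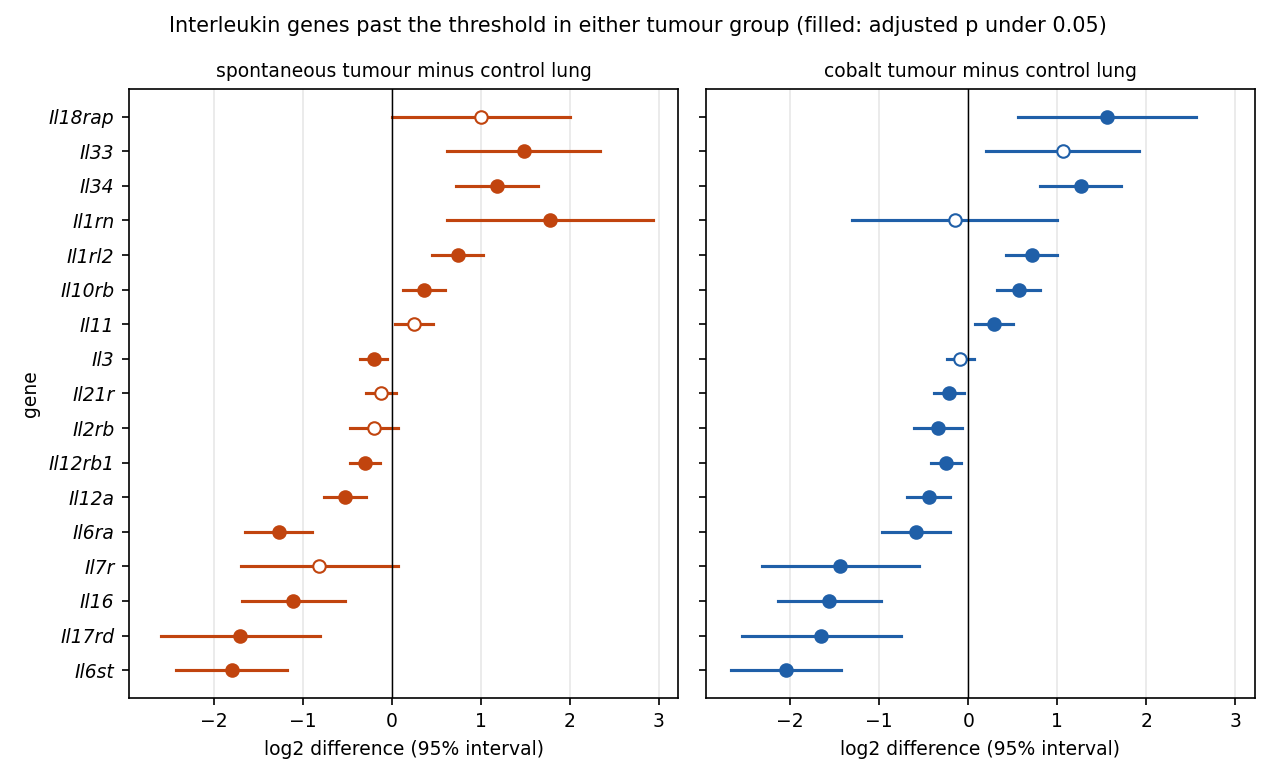
Log2 difference from control lung with its 95% interval (x axis) for the 17 interleukin genes (y axis) past the threshold in at least one tumour group, in spontaneous tumours (left) and cobalt tumours (right), with filled points for an adjusted p under 0.05. Il6st shows the lowest difference in both panels, -1.80 and -2.05, and Il33, Il34, Il1rl2 and Il18rap lie above 0 in both.

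The promoters of 5 members are shown here, from 250 bases before to 50 bases after the outermost RefSeq start site (GRCm38.p6). Il6st and Il16 fell in both tumour groups and Il7r in cobalt tumours, and Il1rn and Il1a were high in the same spontaneous tumours. Il1a was not called against control lung. Il17rd, which fell more than Il7r in both tumour groups, is not shown, so the 5 are not the full set of lowered genes. Capitals mark matches to the AP-1 motif TGANTCA or the STAT motif TTCNNNGAA, searched on both strands together with the NF-kappaB motif.
Il6st promoter, chr13:112463820-112464119, plus strand: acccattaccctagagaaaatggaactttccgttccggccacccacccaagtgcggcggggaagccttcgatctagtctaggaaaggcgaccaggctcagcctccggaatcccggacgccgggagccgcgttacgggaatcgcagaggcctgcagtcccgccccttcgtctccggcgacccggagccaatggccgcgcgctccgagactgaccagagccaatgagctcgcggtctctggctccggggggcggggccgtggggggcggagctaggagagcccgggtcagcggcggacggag
Il16 promoter, chr7:83735490-83735789, minus strand: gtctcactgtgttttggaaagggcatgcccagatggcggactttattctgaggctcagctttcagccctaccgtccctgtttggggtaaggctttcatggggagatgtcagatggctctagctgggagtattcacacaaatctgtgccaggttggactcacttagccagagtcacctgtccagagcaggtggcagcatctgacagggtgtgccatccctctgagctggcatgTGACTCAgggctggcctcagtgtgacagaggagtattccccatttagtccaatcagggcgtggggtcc
Il7r promoter, chr15:9529827-9530126, minus strand: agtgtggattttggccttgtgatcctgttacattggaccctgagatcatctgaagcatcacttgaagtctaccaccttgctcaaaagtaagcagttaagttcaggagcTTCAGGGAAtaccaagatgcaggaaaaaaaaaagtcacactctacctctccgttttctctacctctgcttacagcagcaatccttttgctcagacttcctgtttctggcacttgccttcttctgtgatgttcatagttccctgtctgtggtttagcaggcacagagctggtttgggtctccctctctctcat
Il1rn promoter, chr2:24336610-24336909, plus strand: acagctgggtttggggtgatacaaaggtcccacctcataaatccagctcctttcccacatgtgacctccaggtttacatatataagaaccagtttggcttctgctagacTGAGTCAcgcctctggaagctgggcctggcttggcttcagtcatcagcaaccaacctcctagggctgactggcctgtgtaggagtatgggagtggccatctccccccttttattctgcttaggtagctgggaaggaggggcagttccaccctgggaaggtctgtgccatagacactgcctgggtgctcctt
Il1a promoter, chr2:129309923-129310222, minus strand: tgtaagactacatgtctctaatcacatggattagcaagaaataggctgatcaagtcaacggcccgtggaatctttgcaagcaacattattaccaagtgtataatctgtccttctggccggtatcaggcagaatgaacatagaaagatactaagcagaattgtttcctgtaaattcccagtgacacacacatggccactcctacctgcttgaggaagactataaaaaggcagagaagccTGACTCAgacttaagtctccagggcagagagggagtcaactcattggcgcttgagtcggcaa
Counted from the start site, the AP-1 letters begin at -141 in Il1rn, at -12 in Il1a and at -18 in Il16, and the STAT letters at -142 in Il7r, while none of the 3 motifs is in the Il6st window. Among the 32851 promoters of the RefSeq table, 7.81% hold the AP-1 letters, 8.3% the STAT letters and 8.46% an NF-kappaB match. Of the 73 genes 57 had a promoter there, and of their 70 promoters 14 hold the AP-1 letters, 10 the STAT letters and 7 an NF-kappaB match. Of the 9 genes called in both tumour groups 6 had a promoter there. Of their 9 promoters 1 holds the AP-1 letters, 0 the STAT letters and 1 an NF-kappaB match. A match describes the letters and is not evidence of binding.

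Genes of the IL-6 receptor fell in both tumour groups. Il6st, the shared signalling subunit for IL-6, IL-11 and related cytokines, had its lowest, median and highest levels at 9.52, 9.73 and 10.37 in spontaneous tumours, at 8.87, 9.41 and 11.18 in cobalt tumours, and at 11.52, 11.70 and 11.73 in control lung. Every tumour lay below every control lung, and the cobalt tumour at 11.18 was cobalt tumour 6. The log2 difference was -1.80 ± 0.30 (SE) in spontaneous tumours (3.48-fold lower, adjusted p = 0.000149) and -2.05 ± 0.30 in cobalt tumours (4.14-fold lower, adjusted p = 4.59e-05). Without cobalt tumour 6 the cobalt value was -2.36. Of the other 3 probe sets of Il6st, a pair showed -1.36 and -1.57 in spontaneous and -1.70 and -1.92 in cobalt tumours, and the remaining one showed -0.49 and -0.60 without passing the threshold.

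Il6ra, the subunit that binds IL-6 itself, stood at 6.69, 7.26 and 7.54 (lowest, median, highest) in spontaneous tumours, at 7.59, 7.77 and 8.41 in cobalt tumours and at 8.22, 8.36 and 8.94 in control lung. All spontaneous tumours and 5 of 6 cobalt tumours were below all control lungs. It fell by 1.27 ± 0.18 on the log2 scale in spontaneous tumours (adjusted p = 3.82e-05) and by 0.59 ± 0.18 in cobalt tumours (adjusted p = 0.0175). Its second probe set moved the same way, at -0.53 and -0.34.

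The ligands of this receptor group were dim. Il6, the acute inflammatory cytokine, lay at 4.41, 4.66 and 5.34 in spontaneous tumours, at 4.17, 4.45 and 6.34 in cobalt tumours and at 4.11, 4.20 and 4.45 in control lung, and did not pass the test in either group (0.49 ± 0.28, adjusted p = 0.19, and 0.48 ± 0.28, adjusted p = 0.202). Its value of 6.34 belonged to cobalt tumour 4, and the other 5 cobalt tumours reached 4.47 at most. Without it the cobalt difference of Il6 was 0.16 (adjusted p = 0.432). The spontaneous value passed in 4 of the alternatives, among them without cobalt tumour 4 (adjusted p = 0.00854), among high-Xist arrays alone (0.39, adjusted p = 0.0382) and by the exact permutation test (adjusted p = 0.0234), and its adjusted p reached 0.749 in others. Il11, a cytokine of epithelial injury and fibrosis, rose by 0.29 ± 0.10 in cobalt tumours (adjusted p = 0.0328) and showed 0.25 ± 0.10 in spontaneous tumours (adjusted p = 0.0628). The cobalt call of Il11 was lost in 8 alternatives, among them without control lung 1 and among high-Xist arrays alone (adjusted p = 0.0527 and 0.0608, from 0.00307 to 0.082 over all). The remaining members of the family, Il27ra, Il31 and Il31ra, had differences between -0.24 and -0.02 and no call.

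Endothelial markers fell together with Il6st. All 12 endothelial markers fell in each tumour group, where 18.2% of all genes fell in spontaneous and 19.3% in cobalt tumours. Their mean log2 level ran from 8.15 to 9.63 in spontaneous tumours, from 7.89 to 10.75 in cobalt tumours and from 11.45 to 11.83 in control lung, with the highest tumour value again in cobalt tumour 6. Fibroblast markers ran from 7.65 to 9.47 in spontaneous and from 7.69 to 9.97 in cobalt tumours, against 10.10 to 10.57 in control lung. Of these 12 markers 8 fell in each tumour group, and 2, Col1a1 and Col3a1, rose in spontaneous tumours. The fall was not particular to these cell types. All 7 ciliated cell markers fell in each tumour group. Of 8 smooth muscle and pericyte markers 6 fell and 1 rose in each. The part of these markers in the fall of Il6st and Il6ra was not tested.

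**Figure D3:**
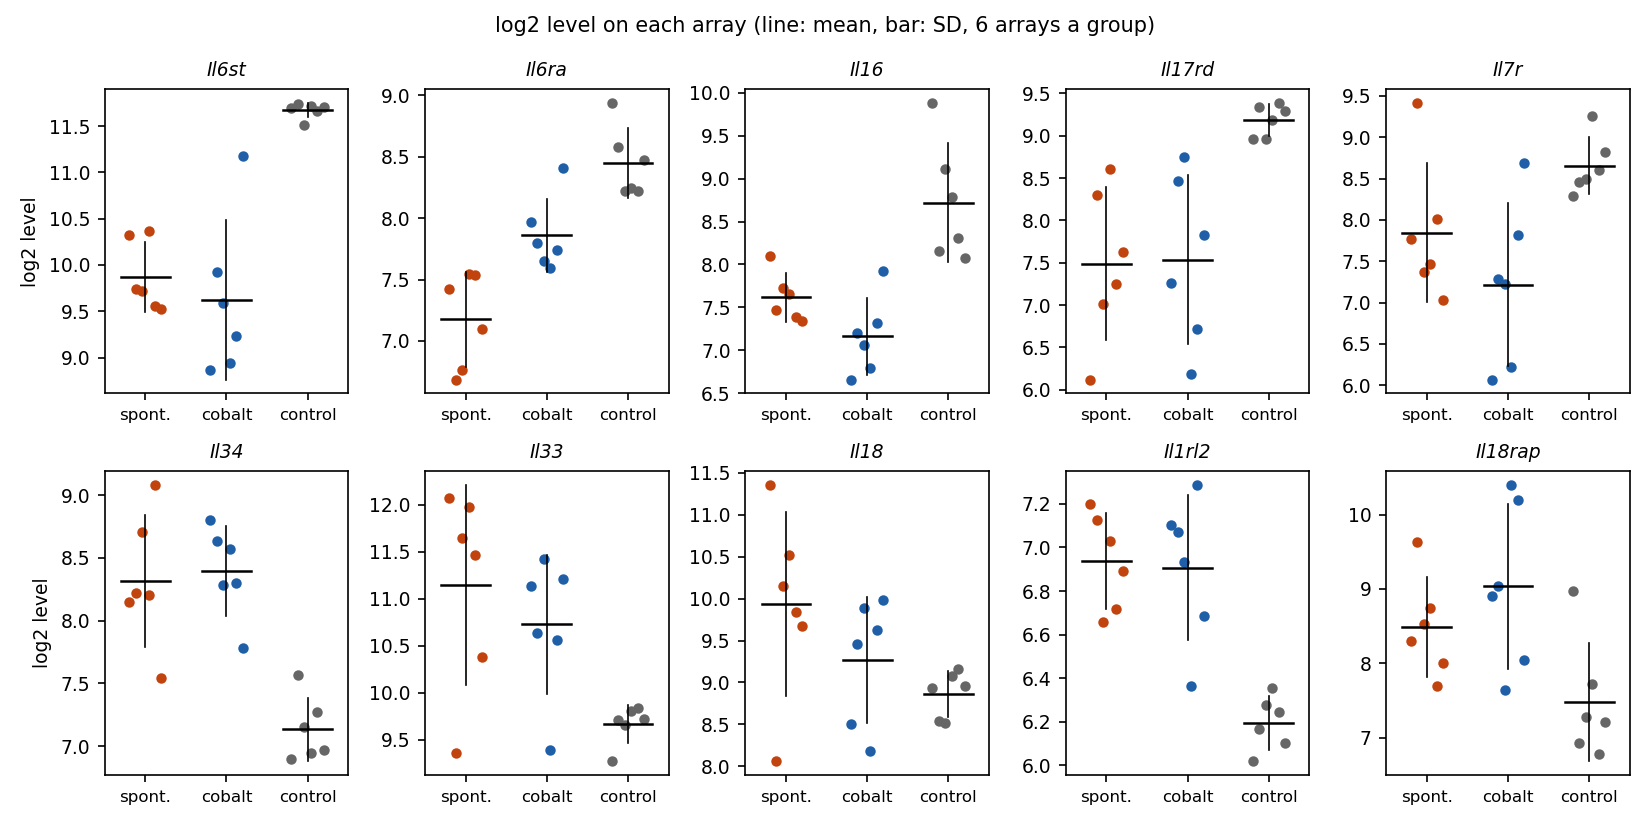
Log2 level (y axis) of 10 interleukin genes on each array (points), with the group mean (line) and SD (bar), in spontaneous tumours, cobalt tumours and control lung (x axis, 6 arrays each). Il6st and Il17rd lie below all control lungs on every tumour array and Il1rl2 above them, whereas Il33, Il18, Il7r and Il18rap overlap between tumours and control lung.

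Among the ligands of the IL-1 family the epithelial alarm cytokine Il33 rose. Its lowest, median and highest levels were 9.36, 11.55 and 12.07 in spontaneous tumours, 9.39, 10.88 and 11.42 in cobalt tumours and 9.27, 9.71 and 9.84 in control lung. In each tumour group 5 of 6 arrays lay above all control lungs, and spontaneous tumour 2 and cobalt tumour 4 lay within the controls. The difference was 1.48 ± 0.41 in spontaneous tumours (2.79-fold higher, adjusted p = 0.0091) and 1.06 ± 0.41 in cobalt tumours, where it missed the threshold (adjusted p = 0.0543). The cobalt value passed in 9 of the 30 alternatives, with adjusted p from 0.00474 to 0.159 over all 30, and was 1.33 without cobalt tumour 4 (adjusted p = 0.0141) and 1.29 among high-Xist arrays alone (adjusted p = 0.00545).

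Il18, an epithelial and macrophage cytokine released by inflammasomes, was more spread among tumours than among control lungs. It stood at 8.06, 9.99 and 11.36 in spontaneous tumours, at 8.18, 9.54 and 9.98 in cobalt tumours and at 8.52, 8.94 and 9.16 in control lung. Spontaneous tumour 2 and cobalt tumour 4, the low arrays for Il33, were also the lowest of their groups for Il18. Neither difference passed the test (1.07, adjusted p = 0.059, in spontaneous tumours and 0.41, adjusted p = 0.501, in cobalt tumours). The spontaneous value passed in 7 alternatives and was 1.45 without spontaneous tumour 2 (adjusted p = 0.00325), with adjusted p from 0.00224 to 0.14 over all 30. The cobalt value was 0.88 among arrays with high Xist alone and passed there (adjusted p = 0.00567, with 0.703 the highest over the alternatives). Il18bp, the secreted protein that binds IL-18, showed -0.14 and -0.17.

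Alveolar type 2 markers, which label the epithelial cells that make surfactant, were uneven among spontaneous tumours but not among cobalt tumours. Their mean log2 level ran from 12.33 to 13.80 in spontaneous tumours, from 13.52 to 13.62 in cobalt tumours and from 12.85 to 13.10 in control lung. The low values of 12.49 and 12.33 belonged to spontaneous tumours 2 and 6. Cobalt tumour 4, low for Il33 and Il18, stood at 13.54. Of the 11 markers 4 rose and 1 fell in spontaneous tumours, where 16.4% of all genes rose and 18.2% fell. In cobalt tumours 7 rose and 1 fell, where 14.7% of all genes rose and 19.3% fell. The part of these markers in the values of Il33 and Il18 was not tested.

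Il1rn, the antagonist that occupies the IL-1 receptor without signalling, stood at 7.63, 8.59 and 11.38 in spontaneous tumours, at 6.26, 7.12 and 8.55 in cobalt tumours and at 6.61, 7.12 and 8.43 in control lung. The spontaneous tumours 2 and 6 were highest, at 11.38 and 10.14, and tumour 1, at 8.96, also lay above every control. The remaining 3 lay above all controls but control lung 1. Il1rn rose by 1.78 ± 0.55 in spontaneous tumours (3.44-fold, adjusted p = 0.0178), and its other 2 probe sets rose by 1.69 and 2.47. Without spontaneous tumours 2 and 6 the value was 0.93 and missed the threshold (adjusted p = 0.0927), among high-Xist arrays it was 1.61 (adjusted p = 0.107), and adjusted p ran from 0.00788 to 0.107 over the 30 alternatives. In cobalt tumours the difference was -0.16 (adjusted p = 0.861).

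Il1a, the IL-1 ligand kept in cells and released on damage, stood at 5.64, 6.18 and 8.01 in spontaneous tumours, at 5.27, 5.46 and 5.57 in cobalt tumours and at 5.31, 5.70 and 6.15 in control lung. The 2 spontaneous tumours with high Il1rn were again highest, with 8.01 in tumour 2 and 7.11 in tumour 6. Against control lung Il1a did not pass the test (0.76, adjusted p = 0.0622, and -0.29, adjusted p = 0.5). The spontaneous value passed in 4 alternatives, with adjusted p from 0.0238 to 0.314 over all of them. It was 0.46 without spontaneous tumour 2, 0.23 without tumours 2 and 6, and 0.93 without tumour 5, where it passed.

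Il1b, the IL-1 ligand that needs cleavage by inflammasomes, did not pass the test in either tumour group (-0.18, adjusted p = 0.855, and -0.80, adjusted p = 0.377). A single array set the control mean: Il1b reached 11.06 in control lung 1 and lay between 6.85 and 8.32 in the other 5. Its highest tumour values were 9.87 in spontaneous tumour 2 and 8.22 in cobalt tumour 4. Without control lung 1 the differences were 0.45 and -0.16, so that the sign of the spontaneous value turned. Il1r2, the decoy receptor of IL-1, behaved alike, at 10.36 in control lung 1 against 5.51 to 6.31 in the other controls, 5.81 to 8.61 in spontaneous tumours and 5.84 to 6.83 in cobalt tumours. Its difference of 0.29 in spontaneous tumours (adjusted p = 0.774) became 1.06 without that array (adjusted p = 0.0495).

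All but Lcn2 of the 7 neutrophil markers were highest of all arrays in the same control lung. S100a8, a calcium-binding protein of neutrophils, stood at 14.67 in control lung 1 and between 9.64 and 12.77 in the other controls, and Csf3r, the receptor of granulocyte colony-stimulating factor, stood at 12.23, against 7.48 to 9.28 in them. The mean level of the 7 neutrophil markers was 8.05 to 9.04 in spontaneous tumours and 7.65 to 9.29 in cobalt tumours, against 12.62 in control lung 1 and 7.96 to 9.52 in the other controls. Lcn2, an iron-binding protein also made by epithelium, stood at 13.35 in control lung 1 and reached 13.78 in tumours, and it was the one marker of the list past the threshold, higher by 2.75 in spontaneous (adjusted p = 0.00157) and by 2.84 in cobalt tumours (adjusted p = 0.00118). The part of the neutrophil markers in the values of Il1b, Il1r2, Il1rn and Il18rap in that array was not tested.

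**Figure D4:**
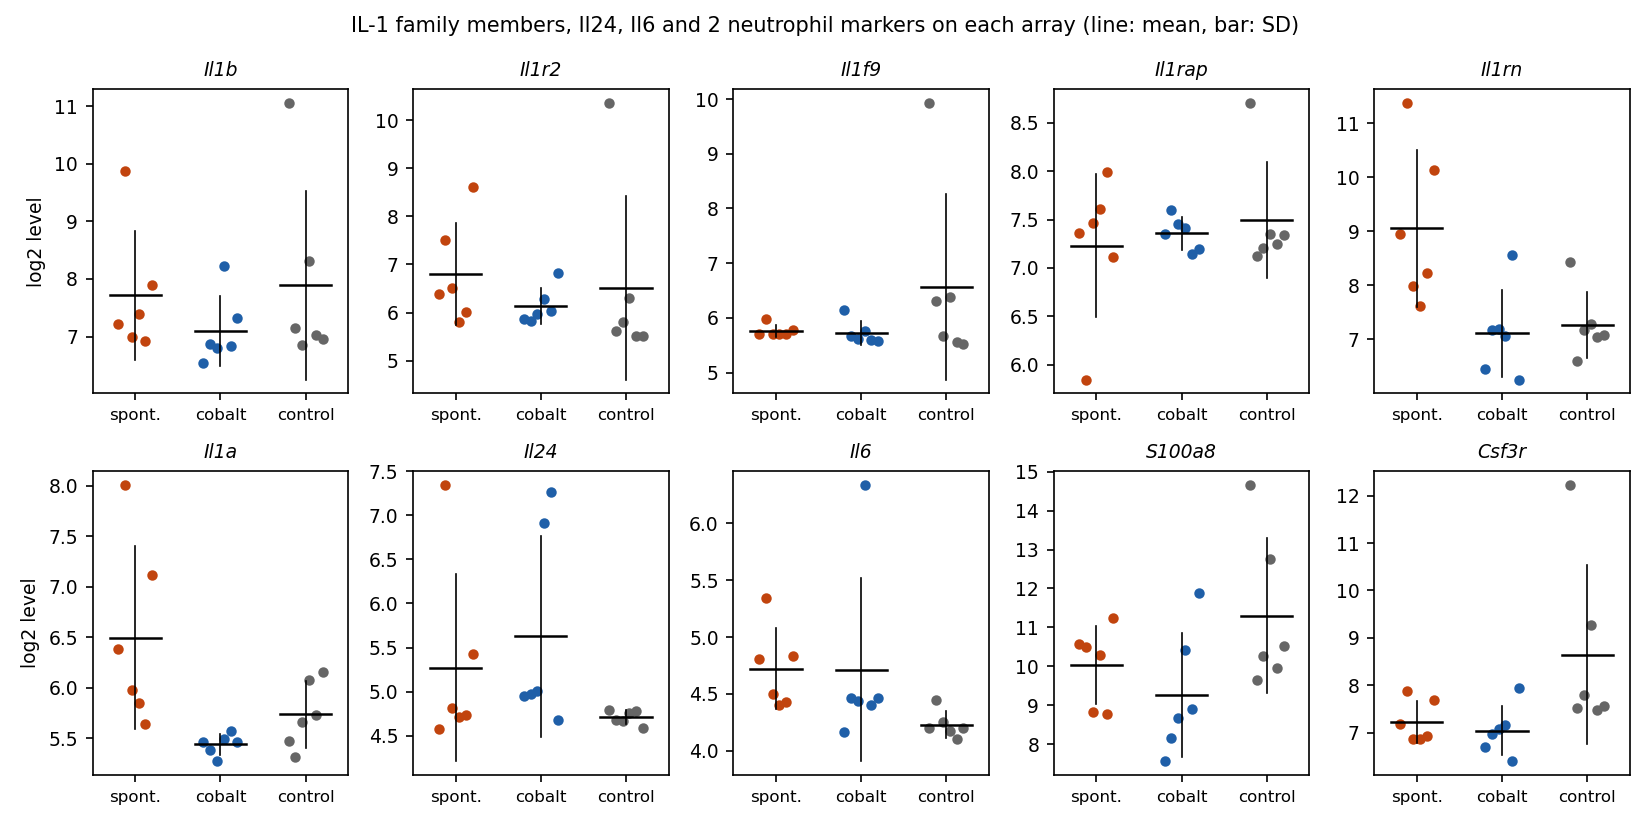
Log2 level (y axis) on each array (points) of IL-1 family genes, Il24, Il6 and the neutrophil genes S100a8 and Csf3r in spontaneous tumours, cobalt tumours and control lung (x axis, 6 arrays each), with the group mean (line) and SD (bar). The high control point for Il1b, Il1r2, S100a8 and Csf3r is control lung 1 in each panel.

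Among receptors of the IL-1 family, Il1rl2 and Il18rap moved. Il1rl2, the receptor of the epithelial IL-36 cytokines, had 6.66, 6.96 and 7.20 in spontaneous tumours, 6.37, 7.0 and 7.29 in cobalt tumours and 6.02, 6.20 and 6.35 in control lung. Every tumour lay above every control lung. It rose by 0.74 ± 0.14 in spontaneous tumours (adjusted p = 0.000397) and by 0.71 ± 0.14 in cobalt tumours (adjusted p = 0.000551). Its second probe set showed 0.25 and 0.22 and did not pass the threshold. The IL-36 ligands measured as Il1f6, Il1f8 and Il1f9 and their antagonist Il1f5 were not called.

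Il18rap, the accessory subunit that makes the IL-18 receptor signal, stood at 7.70, 8.41 and 9.63 in spontaneous tumours, at 7.64, 8.97 and 10.40 in cobalt tumours and at 6.78, 7.24 and 8.97 in control lung. Its highest control value belonged to control lung 1, and all tumours but spontaneous tumour 5 and cobalt tumour 3, at 7.70 and 7.64, lay above the other 5 controls. It rose by 1.56 ± 0.47 in cobalt tumours (2.95-fold, adjusted p = 0.0165, from 0.00161 to 0.098 over the alternatives) and showed 1.00 in spontaneous tumours (adjusted p = 0.113). Without control lung 1 both passed, at 1.86 (adjusted p = 0.0046) in cobalt tumours and 1.30 (adjusted p = 0.0363) in spontaneous tumours. Among the arrays with high Xist alone the cobalt value was 1.25 and missed the threshold (adjusted p = 0.098). The cobalt call was also lost by the exact permutation test. With the mean of its 2 probe sets the cobalt call of Il18rap held. The binding subunit Il18r1 showed -0.23 in spontaneous and 0.17 in cobalt tumours and was not called.

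Il1r1, the signalling receptor of IL-1, had 8.55, 8.77 and 9.20 in spontaneous tumours, 8.63, 9.14 and 9.66 in cobalt tumours and 8.99, 9.07 and 9.13 in control lung. The controls lay inside the range of both tumour groups. Its differences of -0.28 (interval -0.58 to 0.02) and 0.05 (interval -0.25 to 0.35) did not pass the test. The remaining IL-1 family ligands and receptors had differences between -0.84 and 0.17 and no call, with the lowest for Il1f9, whose control mean again held a high value from control lung 1.

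Of the 13 genes of the IL-2 group, 3 receptors fell in cobalt tumours and 0 passed in spontaneous tumours by limma, where 19.3% and 18.2% of all genes fell. Il7r, which with the common gamma chain carries the survival signal of lymphocytes, had 7.03, 7.62 and 9.42 in spontaneous tumours, 6.07, 7.26 and 8.69 in cobalt tumours and 8.29, 8.55 and 9.25 in control lung. Of the spontaneous tumours only tumour 2, at 9.42, and of the cobalt tumours only tumour 6, at 8.69, lay within or above the controls. Il7r fell by 1.44 ± 0.42 in cobalt tumours (2.71-fold lower, adjusted p = 0.0124) and showed -0.81 in spontaneous tumours (adjusted p = 0.146). Without spontaneous tumour 2 the spontaneous value was -1.13 and passed (adjusted p = 0.0262, from 0.011 to 0.438 over the alternatives), as it did among high-Xist arrays alone (-1.41, adjusted p = 0.0149). Its second probe set showed -0.92 in cobalt tumours and missed the threshold (adjusted p = 0.125).

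Il2rb, the subunit shared by the IL-2 and IL-15 receptors, and Il21r, the receptor of the follicular helper cytokine IL-21, fell slightly in cobalt tumours (-0.34, adjusted p = 0.0498, and -0.22, adjusted p = 0.047). Both calls lay at the threshold and were lost in 19 and 21 of 29 alternatives, among them without control lung 1, without cobalt tumour 6 and among high-Xist arrays alone. In spontaneous tumours Il2rb showed -0.20 (adjusted p = 0.24) and passed without spontaneous tumour 2 and with array weights. Il15ra, which presents IL-15 to other cells, showed -0.46 in spontaneous and -0.33 in cobalt tumours and was not called (adjusted p = 0.0723 and 0.204). Il2ra, Il4ra and Il9r and the ligands Il2, Il4, Il7, Il9, Il15 and Il21 were not called in either.

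Il16, a chemoattractant of CD4+ cells that is made largely by lymphocytes, fell in both tumour groups. It stood at 7.34, 7.57 and 8.10 in spontaneous tumours, at 6.66, 7.13 and 7.92 in cobalt tumours and at 8.08, 8.55 and 9.88 in control lung. Every cobalt tumour and all but the highest spontaneous tumour lay below all control lungs, of which control lung 1 was highest. It fell by 1.11 ± 0.27 in spontaneous tumours (adjusted p = 0.0044) and by 1.56 ± 0.27 in cobalt tumours (2.95-fold lower, adjusted p = 0.000267). Among arrays with high Xist alone the spontaneous value was -1.22 and missed the threshold (adjusted p = 0.0537, the highest over the alternatives, with 0.00242 the lowest). A second probe set of Il16 showed -0.61 and -0.85, and another one showed 0.27 in cobalt tumours (adjusted p = 0.007), so its probe sets disagreed in direction.

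T and NK cell markers fell beside these genes: 9 of 16 in spontaneous and 11 of 16 in cobalt tumours fell and 0 rose, where 18.2% and 19.3% of all genes fell. Their mean log2 level ran from 5.79 to 6.97 in spontaneous tumours and from 5.77 to 6.27 in cobalt tumours, against 6.54 to 7.02 in control lung. The highest tumour value, 6.97, belonged to spontaneous tumour 2, in which Il7r and Il2rb were also highest. Il16 and Il21r were highest among spontaneous tumours in tumour 1, where the markers stood at 5.90. Among cobalt tumours the markers were highest in tumour 5, at 6.27, as was Il2rb. In that group Il7r and Il16 were highest in tumour 6, with the markers at 5.95, and Il21r in tumour 3, with the markers at 5.87. Their part in the values of Il7r, Il2rb, Il21r and Il16 was not tested.

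Receptors of type 2 cytokines did not pass the test. Il4ra, which binds IL-4 and serves IL-13, had 8.13, 8.92 and 10.04 in spontaneous tumours, 8.10, 9.29 and 10.62 in cobalt tumours and 9.15, 9.23 and 10.00 in control lung. The cobalt tumours 4 and 5, at 10.62 and 10.22, lay above every control, and the differences were -0.33 (adjusted p = 0.494) and 0.08 (adjusted p = 0.892). Il13ra1, the subunit that pairs with it for IL-13, had 8.62, 9.07 and 9.48 in spontaneous tumours, 7.57, 8.44 and 9.19 in cobalt tumours and 8.40, 8.91 and 9.93 in control lung, with differences of 0.01 (adjusted p = 0.977) and -0.58 (adjusted p = 0.113). The ligands Il4, Il5 and Il13 were dim and their differences lay between -0.07 and 0.09. Il3, a growth factor of mast cells and basophils, was called lower in spontaneous tumours (-0.20, adjusted p = 0.0407), a call lost in 16 of 29 alternatives, among them without control lung 1 and among high-Xist arrays alone.

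Of 18 genes listed as responding to IL-4 and IL-13, not only in macrophages, 5 rose and 1 fell in spontaneous tumours, where 16.4% of all genes rose and 18.2% fell. In cobalt tumours 2 rose and 2 fell, both below the 14.7% and 19.3% of all genes. Their median log2 difference was 0.87 in spontaneous and 0.21 in cobalt tumours, next to -0.03 over all genes. Arg1, the arginase of alternatively activated macrophages, rose by 4.94 in spontaneous and by 2.96 in cobalt tumours, Retnla, a secreted protein of such cells, rose by 2.45 in spontaneous tumours, and the chemokine gene Ccl17 rose by 1.81 and 1.57. The transglutaminase Tgm2 fell by 0.63 in spontaneous and by 0.94 in cobalt tumours. Postn had the largest fall of the list in cobalt tumours, with a mean level of 9.81 against 11.31 in control lung (limma, adjusted p = 5.87e-05). In spontaneous tumours Postn had a mean of 10.76 and did not pass (adjusted p = 0.0638). Of 19 macrophage markers 10 rose and 0 fell in spontaneous tumours. In cobalt tumours 7 of these markers rose and 3 fell, where only 2 of the 18 response genes rose and 2 fell. The mean level of the macrophage markers ran from 9.54 to 10.51 in spontaneous and from 8.82 to 9.62 in cobalt tumours, against 8.57 to 9.46 in control lung. Mrc1 and Chil3 are in both lists, and the part of macrophage RNA in these values was not tested.

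Il34, which shares the receptor Csf1r with colony-stimulating factor 1 and sustains tissue macrophages, rose in both tumour groups. It stood at 7.54, 8.21 and 9.08 in spontaneous tumours, at 7.78, 8.44 and 8.80 in cobalt tumours and at 6.90, 7.06 and 7.56 in control lung. Only spontaneous tumour 6, at 7.54, lay within the range of the controls. It rose by 1.18 ± 0.22 in spontaneous tumours (2.27-fold, adjusted p = 0.0004) and by 1.26 ± 0.22 in cobalt tumours (2.40-fold, adjusted p = 0.000225). The other ligand of that receptor, Csf1, fell by 1.26 in spontaneous and by 1.58 in cobalt tumours, and Csf1r itself fell by 0.82 in cobalt tumours and showed -0.39 in spontaneous tumours.

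Il10rb, the subunit shared by the receptors of IL-10, IL-22 and the interferon lambdas, stood at 10.30, 10.75 and 11.01 in spontaneous tumours, at 10.70, 10.88 and 11.07 in cobalt tumours and at 10.18, 10.32 and 10.43 in control lung. All cobalt tumours lay above all control lungs, and spontaneous tumours 2 and 6 lay within the controls. It rose by 0.37 ± 0.11 in spontaneous tumours (adjusted p = 0.0178, lost in 5 of 30 alternatives, high-Xist arrays and the mean of its 2 probe sets among them, with adjusted p from 0.000261 to 0.227) and by 0.56 ± 0.11 in cobalt tumours (adjusted p = 0.00082). The ligand-binding Il10ra and the ligands Il10, Il20 and Il24 were not called.

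Il17rd, a receptor-like membrane protein known as a brake on fibroblast growth factor signalling, was the one member of the IL-17 group past the threshold. It stood at 6.12, 7.44 and 8.60 in spontaneous tumours, at 6.18, 7.55 and 8.75 in cobalt tumours and at 8.96, 9.24 and 9.39 in control lung. Every tumour lay below every control lung. Its log2 difference was -1.70 ± 0.42 in spontaneous tumours (3.25-fold lower, adjusted p = 0.00456) and -1.65 ± 0.42 in cobalt tumours (3.14-fold lower, adjusted p = 0.00546). With Y-linked RNA as a covariate the spontaneous value was -0.97 and missed the threshold (adjusted p = 0.105), as it did among arrays with high Xist alone (-1.07, adjusted p = 0.0931), and the lowest adjusted p over the alternatives was 0.00151. A second probe set showed 0.01 and -0.04. The other 8 genes, among them the ligands Il17a, Il17b, Il17d and Il25, had differences between -0.42 and 0.29.

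In the IL-12 group Il12a, the subunit that makes IL-12 with Il12b, fell by 0.53 in spontaneous tumours (adjusted p = 0.00166) and by 0.44 in cobalt tumours (adjusted p = 0.00563). Il12rb1, the receptor subunit shared by IL-12 and IL-23, fell by 0.30 (adjusted p = 0.00626) and by 0.25 (adjusted p = 0.0185). Among arrays with high Xist alone the calls of Il12rb1 were lost in both groups (adjusted p = 0.067 and 0.0597), as was that of Il12a in cobalt tumours (adjusted p = 0.0549). The calls of Il12rb1 were also lost with cyclic loess normalization (adjusted p = 0.0564 and 0.0821), and that in cobalt tumours without control lung 1 and cobalt tumour 6 (adjusted p = 0.063). Over the alternatives the lowest adjusted p of Il12rb1 was 0.000767 in spontaneous and 0.00529 in cobalt tumours, and that of Il12a in cobalt tumours was 0.00209. Both genes are dim, with Il12a at 4.27 to 4.63 in spontaneous tumours, 4.42 to 4.63 in cobalt tumours and 4.61 to 5.51 in control lung. The other 3 genes, Il12b, Il23a and Il12rb2, had differences between -0.08 and 0.17.

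Of 21 JAK-STAT genes downstream of the receptors 1 rose and 4 fell in spontaneous tumours (median -0.05), where 16.4% of all genes rose and 18.2% fell. In cobalt tumours 2 rose and 6 fell (median -0.18), where 14.7% of all genes rose and 19.3% fell. The share that rose was below that of all genes in each, and the share that fell was near it in spontaneous and above it in cobalt tumours, which was not tested. Jak1, the kinase bound to Il6st, fell by 0.84 in spontaneous and by 1.11 in cobalt tumours, and Stat5b, a factor used by IL-2 and IL-7 receptors, fell by 0.95 and by 1.26. Socs3, the feedback inhibitor that binds Il6st, rose by 0.99 and by 0.89. Socs2 rose by 1.10 in cobalt tumours and showed 0.53 in spontaneous tumours, where it did not pass. Among 17 genes that act below the IL-1 and IL-17 receptors, 2 rose and 4 fell in spontaneous tumours (median 0.05) and 1 rose and 5 fell in cobalt tumours (median -0.20), with Nfkbia, the inhibitor of NF-kappaB, lower by 1.07 and 1.16 on the log2 scale. Irak3 fell by 1.32 in spontaneous and by 0.95 in cobalt tumours. Irak2 rose by 0.84 in cobalt tumours and showed 0.37 in spontaneous tumours, where it did not pass.

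Of 18 cytokine and receptor genes shared with the interleukins 3 rose and 3 fell in spontaneous tumours, about the 16.4% and 18.2% of all genes, and 1 rose and 5 fell in cobalt tumours, next to 14.7% and 19.3% of all genes. Lifr, the partner of Il6st for leukemia inhibitory factor, fell by 1.81 in spontaneous and by 1.54 in cobalt tumours. Csf2rb, the beta chain common to IL-3, IL-5 and granulocyte-macrophage colony-stimulating factor, rose by 1.60 in spontaneous tumours and showed 0.70 in cobalt tumours, and the ligand Csf2 rose by 1.60 and 1.30. Of 8 inflammasome genes 2 rose in spontaneous tumours, Pycard by 0.86 and Casp8 by 0.59, and 0 passed in cobalt tumours by limma.

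Set directly against spontaneous tumours, cobalt tumours had 0 of the 73 genes past the threshold by limma, where 0.0824% of all genes passed, and 0 by the exact permutation test. At an unadjusted p under 0.05 stood 6 of the 73 (8.22%), where 11.6% of all genes did, so the members' share was below that of all genes. Il6ra was higher in every cobalt tumour than in any spontaneous tumour, with a difference of 0.69 (interval 0.31 to 1.07, adjusted p = 0.167). Il1a was lower in every cobalt tumour, with -1.05 (interval -1.69 to -0.41, adjusted p = 0.189). These 2 genes were the 2.74% of members whose groups did not overlap, where 0.616% of all genes did not. Il1rn showed -1.94 (interval -3.09 to -0.78, adjusted p = 0.188), and the rest were Il13ra1 at -0.59, Il1r1 at 0.33 and Il17b at 0.22. Il6st differed by -0.25 between the tumour groups, Il33 by -0.42 and Il34 by 0.08, with no test passed. A call in one tumour group only, as for Il33, Il1rn, Il7r and Il18rap, was therefore not shown to differ between them.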

How the data were processed

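RNA of 18 samples was measured on Affymetrix mouse 3' expression arrays, 1 array each, grouped by title, source and group label. The values the authors deposited are log2 levels. The submitters' processing notes name RMA for them, and its version is not given in the sources used here. RMA corrects background and equalises array distributions, which can hide a shift of all genes, and it compresses differences of dim probe sets. Values ran from 3.34 to 15.26 and were used as deposited, with all 18 columns and no pseudocount. The number of arrays limits the precision.

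Of 45101 probe sets, 64 controls, 932 with several symbols (3 of them with an interleukin symbol) and 9160 with none were left out. The 34945 others gave 18193 genes by their probe set of highest mean. Symbols came from the platform annotation and were checked by Entrez identifier against RefSeq of assembly GRCm38.p6. The fit of all genes used lmFit and eBayes of limma 3.58.1 under R 4.3.3 over the 18 arrays with group as factor, two-sided, with Benjamini-Hochberg adjustment over 18193 genes. Errors are standard errors and intervals cover 95%. Lists of signalling genes and cell markers were described by counts and medians, with no test. The fit was tested on simulated data.

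Array values are printed for genes past the threshold with a log2 difference of at least 1 and for Il33, Il1a, Il1b, Il1rn, Il1r1, Il1r2, Il18, Il6, Il6ra, Il6st, Il4ra, Il13ra1, Il7r and Il34. Il1rl2, Il10rb, Il12a, Il24 and Il1f9 received array values after theirs were seen. Of each pathway list up to 3 genes each way were eligible. The members, lists and tests were chosen with earlier results of these data known. The 30 alternatives were other normalization, filtering, probe set, variance, weighting and sample choices, the replicate number as a block, sex-linked RNA, each array left out in turn and an exact permutation test over 924 assignments. Leaving out control lung 1 and cobalt tumour 6 together was chosen after seeing the data.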

Additional observations from a re-analysis of the deposited data

Results flagged for a closer look

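Among 75 groups of 6 arrays examined for an array far from the others (its gap to the nearest array taking up most of the group's range, by Dixon's 95% limit), 9 stood out, and chance gives about 1 in 20. Control lung 1 accounts for 5 of the 9. In it Il1b was at 11.06 (other controls 6.85 to 8.32), Il1r2 at 10.36 (5.51 to 6.31), Il1rn at 8.43 (6.61 to 7.29) and Il4ra at 10.00 (9.15 to 9.35), all high, and Il33 was low at 9.27 (9.66 to 9.84). Neutrophil markers other than Lcn2 were also highest in that array, and their part was not tested.

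In spontaneous tumour 2, Il1b was high at 9.87 (other spontaneous tumours 6.92 to 7.90), as was Il11 at 6.18 (5.55 to 5.79). In cobalt tumour 4, Il6 was high at 6.34, with the other cobalt tumours at 4.17 to 4.47. In control lung 3, Il6st was low at 11.52, with the other controls at 11.67 to 11.73, still above every tumour.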

How the results depend on the processing

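With each array left out in turn, 11 to 15 interleukin genes passed in spontaneous tumours against control lung and 11 to 14 in cobalt tumours, where 12 and 14 passed with all arrays. The other alternatives gave 9 to 16 and 10 to 21, where 21 came with array weights, and 0 between the tumour groups in every alternative run. Without spontaneous tumours 2 and 6 the counts of interleukin genes were 13 and 15, without control lung 1 they were 13 and 11, and without control lung 1 and cobalt tumour 6 they were 13 and 12. With the replicate number as a block, 11 and 12 interleukin genes passed, and 0 between tumour groups. Correlations of same-numbered arrays ran from -0.338 to 0.195, and 0 arrays lay closest to their own number, so no consistent pairing by number was seen. Whether same-numbered arrays shared a batch cannot be told from these correlations. Of the 12 genes called in spontaneous tumours, 6 passed in every alternative that tested them (Il12a, Il1rl2, Il33, Il34, Il6ra, Il6st), and of the 14 in cobalt tumours 8 did (Il10rb, Il16, Il17rd, Il1rl2, Il34, Il6ra, Il6st, Il7r). Calls of Il3, Il21r and Il2rb were lost in 16, 21 and 19 alternatives. Control lungs all had high Xist, so sex-linked differences between tumours and controls can be held constant only over the 12 arrays with high Xist or by a covariate. No called value changed sign in the alternatives, which did not test single other probe sets. As given above, another probe set of Il16 rose in cobalt tumours, and that of Il17rd showed almost no difference. In cobalt tumours a further probe set each of Il6st, Il7r and Il1rl2 missed the threshold. For the dim genes, 42 of the 73, the deposited values do not show the distance to the array background.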

Other observations

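Il24, a cytokine of the IL-10 group made by stressed epithelium and keratinocytes, was looked at after its values were seen. It reached 7.35 and 5.43 in spontaneous tumours 2 and 6 and 7.26 and 6.91 in cobalt tumours 5 and 4, against 4.59 to 4.79 in control lung. With limma its differences of 0.56 and 0.92 did not pass the threshold (adjusted p = 0.397 and 0.161). Cobalt tumour 4 was also the array with high Il6, at 6.34, and with high Il4ra, at 10.62. Il1f9, an IL-36 ligand, stood at 9.93 in control lung 1 and at 6.39 or lower on the other 17 arrays, and its coreceptor Il1rap stood at 8.70 in the same array.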
